A study of Mus musculus with 24 samples.

Results

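The lysosome of macrophages was followed through the transcripts of 53 genes, out of 52636 gene models counted in each library. They were listed by name and found by gene symbol, and comprise 16 subunits of the vacuolar proton pump (V-ATPase), 10 cathepsins, 18 hydrolases of glycans, lipids and peptides, 7 membrane proteins and 2 soluble cofactors. All 53 passed the filter on low counts, which left 14435 genes for testing. The cells were bone marrow derived macrophages, primary cells grown from mouse marrow. There were 4 groups of 6 RNA sequencing libraries: cells of Ninj1 knockout mice given Pam3 (KO_Pam3), C57BL/6 wild-type cells given Pam3 (WT_Pam3), Ninj1 knockout cells in media only (KO_media) and C57BL/6 wild-type cells in media only (WT_media). Pam3 is the usual short name of a synthetic lipopeptide that is recognised by TLR1 and TLR2. Ninj1 encodes a surface protein of the plasma membrane that acts in its rupture during lytic cell death. The sources used here state neither the strain background of the knockout mice, nor which part of Ninj1 was deleted, nor the age of the mice, nor the dose and time of Pam3. Nothing in them tells if each library stands for its own animal or culture, and the p-values therefore measure a spread between libraries that may be technical.

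Lysosomes are acidified by the V-ATPase, which uses ATP in its cytosolic V1 sector to drive protons through its membrane V0 sector. Cathepsins and the other hydrolases work at the low pH that results, helped by cofactors that present lipids to them, while heavily glycosylated membrane proteins line the compartment and channels release its calcium. In macrophages this machinery digests engulfed material, and many of its genes carry the palindromic E-box element to which the MiT/TFE transcription factors (TFEB, TFE3, MITF and TFEC) bind.

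The E-box matches in the promoter windows of these genes are shown first, because this element is what many lysosomal promoters are known to share. RefSeq promoter sequences (GRCm38.p6) were at hand for 44 of the 53 genes, and the 250 bases before each annotated start were searched on both strands for CACGTG and for the longer TCACGTGA, which contains it; both read the same on either strand. A gene counted as holding a match if the window of any of its listed promoters held it, and such a promoter was then the 1 shown. Its start can lie inside the annotated gene. CACGTG was found for 13 of the 44 genes (29.5%), against 6.86% of 27025 genes with such a window and 6.02% of all promoters in the table. TCACGTGA was found for 5 of the 44 (11.4%), against 0.907% of those genes and 0.785% of promoters. A match describes these letters only and does not show binding. Stretches of 30 bases around the match follow, 5′ to 3′ on the strand of the gene, with the match in capitals (the 250-base windows of some genes, such as Ctsd and Gla, overlap annotated exons). The genes with the longer match are given before the others.

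Atp6v1a: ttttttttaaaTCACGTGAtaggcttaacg
Ctsa: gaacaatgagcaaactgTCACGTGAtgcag
Ctsd: tcgcccgcgtcTCACGTGAcccgttgaggg
Gla: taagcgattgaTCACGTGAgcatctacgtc
Mcoln1: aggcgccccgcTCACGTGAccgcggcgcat
Atp6v0b: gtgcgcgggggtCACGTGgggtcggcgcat
Ctsf: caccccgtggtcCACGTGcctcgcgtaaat
Ctsl: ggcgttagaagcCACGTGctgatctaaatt
Gaa: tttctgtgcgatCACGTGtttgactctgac
Glb1: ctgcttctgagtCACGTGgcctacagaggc
Lamp1: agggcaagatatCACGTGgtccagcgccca
Naglu: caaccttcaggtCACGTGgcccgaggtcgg
Sgsh: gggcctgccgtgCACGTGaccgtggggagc

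On GRCm38 these stretches stand at chr16:44139373-44139402 on the minus strand for Atp6v1a, chr2:164833743-164833772 on the plus strand for Ctsa and chr7:142387908-142387937 on the minus strand for Ctsd. Those of Gla and Mcoln1 stand at chrX:134601215-134601244 (minus) and chr8:3500462-3500491 (plus). Atp6v0b, Ctsf and Ctsl follow at chr4:117887348-117887377 (minus), chr19:4855074-4855103 (plus) and chr13:64370739-64370768 (minus). Gaa, Glb1 and Lamp1 stand at chr11:119267811-119267840, chr9:114401018-114401047 and chr8:13159088-13159117, all on the plus strand. Naglu and Sgsh stand at chr11:101070009-101070038 (plus) and chr11:119355522-119355551 (minus). For each gene 1 match is shown; the windows of Atp6v0b, Ctsd, Gla, Lamp1 and Mcoln1 hold further CACGTG matches. Among those shown, the distance from the first base of the match to the start of the promoter shown ran from 13 bases for Ctsa to 236 bases for Ctsl. That start is not always the outer end of the gene. The matches shown for Atp6v1a, Ctsa, Ctsd, Ctsl, Mcoln1 and Naglu lie inside the bounds of the annotated gene, and that of Sgsh crosses its end.

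The window of Hpse is printed whole, because this gene differed most clearly between the genotypes and its window held neither match. It covers chr5:100719717-100719966 on the minus strand, next to the gene (ENSMUSG00000035273, chromosome 5, positions 100679484 to 100719716 of GRCm38), and overlaps no annotated exon.

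Hpse: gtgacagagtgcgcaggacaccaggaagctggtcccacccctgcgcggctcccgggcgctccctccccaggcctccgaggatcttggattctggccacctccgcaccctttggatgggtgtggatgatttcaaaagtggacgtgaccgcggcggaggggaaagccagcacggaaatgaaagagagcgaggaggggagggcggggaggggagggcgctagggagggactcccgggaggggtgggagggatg

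Each library held 31302011 to 40663152 uniquely aligned, counted reads, and no pair of libraries held identical counts. Levels are given below as CPM, counts relative to the TMM-scaled library size, which compares groups but not genes, and as the authors' RPKM where genes are compared. Ninj1 stood at 429 ± 25.7 CPM in KO_Pam3 and 810 ± 176 CPM in WT_Pam3, and at 166.7 ± 9.68 CPM in KO_media and 307.3 ± 15.7 CPM in WT_media (SD, n = 6). These counts cover the whole gene, and the deleted exons are not known here. Xist was present in every library and Y-linked genes were at or near 0, although the wild-type libraries are labelled male. The 8 macrophage markers summed to 29630 to 31050 CPM in KO_Pam3, 31570 to 35620 CPM in WT_Pam3, 26480 to 27160 CPM in KO_media and 25920 to 27600 CPM in WT_media. WT_Pam3 replicate 5 stood apart from the other 5 WT_Pam3 libraries: the fifth of genes with the shortest exon length was 0.27 higher and the fifth with the longest 0.35 lower on the log2 scale, and the 53 lysosomal genes had a median 0.11 higher. No other library moved by more than 0.071 in the short or long genes. The counts of genes called are therefore also given without that library, as are the called KO against WT differences that moved by more than 1.5 times without it.

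The 53 genes took up 5.576% ± 0.144 of the counted reads in KO_Pam3 libraries and 6.073% ± 0.349 in WT_Pam3 libraries, against 11.27% ± 0.201 in KO_media and 11.43% ± 0.215 in WT_media (SD, n = 6). The highest Pam3 library, at 6.786%, was far below the lowest media library, at 11.07%. Cathepsins made the largest contribution, at 2.766% ± 0.0732 in KO_Pam3, 2.977% ± 0.295 in WT_Pam3, 5.081% ± 0.122 in KO_media and 5.088% ± 0.102 in WT_media. The cofactors Psap and Grn held 1.218% ± 0.0509, 1.375% ± 0.0326, 2.678% ± 0.0489 and 2.741% ± 0.0594 in the same order of groups. The hydrolases fell furthest as a class, to 0.3634% ± 0.00579 in KO_Pam3 and 0.3979% ± 0.0111 in WT_Pam3, against 1.044% ± 0.0132 in KO_media and 1.057% ± 0.0116 in WT_media. A share of reads also moves with what all other genes do. On the TMM scale used for the tests, the V-ATPase genes summed to 4459 ± 116 CPM in KO_Pam3, 4737 ± 180 CPM in WT_Pam3, 4460 ± 98.6 CPM in KO_media and 4671 ± 109 CPM in WT_media, so that their lower share of reads was not seen there. The cathepsins of KO_Pam3 (31530 to 34130 CPM) still lay below those of KO_media (41400 to 44170 CPM). Those of WT_Pam3 (33870 to 43190 CPM) overlapped those of WT_media (41800 to 44550 CPM) through WT_Pam3 replicate 5. Its cathepsin share of reads was 3.577%, against 2.824% to 2.9% in the other WT_Pam3 libraries. In bulk RNA less RNA per cell and fewer cells of a type cannot be told apart.

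**Figure D1:**
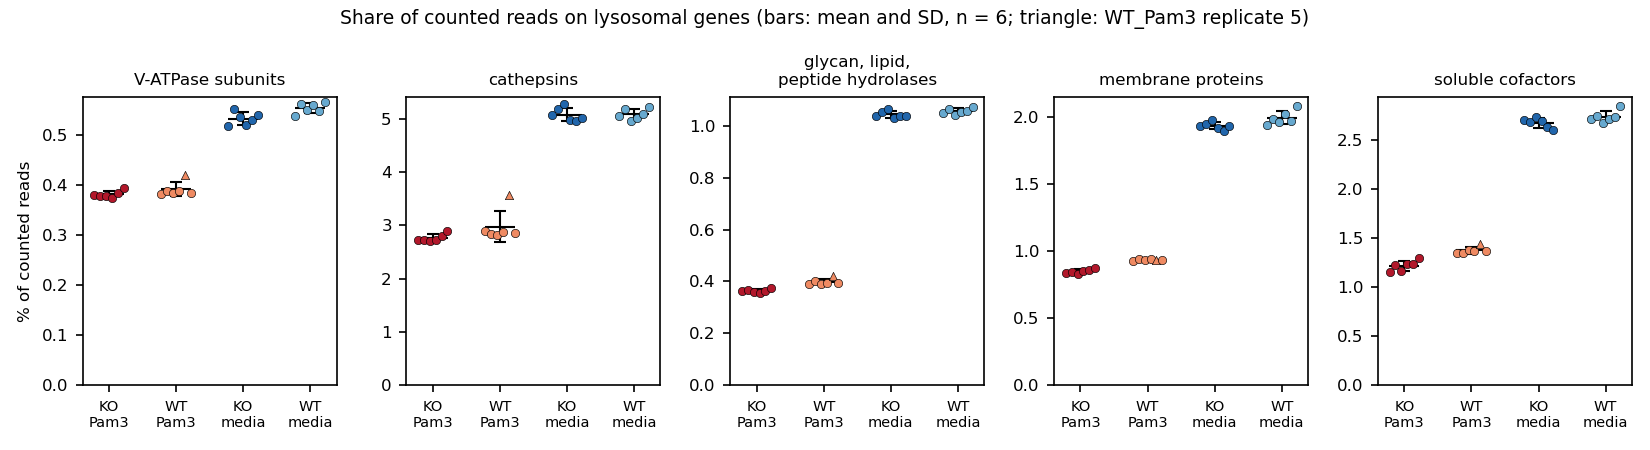
Percent of counted reads on the genes of each class (y axis, from 0, in %), with 1 point per library, bars for mean and SD (n = 6) and a triangle for WT_Pam3 replicate 5. On this scale, without TMM, the Pam3 libraries lie below the media libraries in all 5 classes, and membrane proteins are lower in all 6 KO_Pam3 libraries (0.8245% to 0.8721%) than in all 6 WT_Pam3 libraries (0.923% to 0.9424%).

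Per length of transcript the genes spanned several orders of magnitude. Psap, the precursor of the saposins that lift sphingolipids out of membranes, was highest of the 53 in every group, at a mean of 3742 RPKM in KO_Pam3, 4449 RPKM in WT_Pam3, 6046 RPKM in KO_media and 6353 RPKM in WT_media. Ctsb and Ctsd, the cysteine and aspartic proteases cathepsin B and D, came next in every group, at 3127 and 2403 RPKM in KO_Pam3 and at 4615 and 4312 RPKM in WT_media. Ctss, cathepsin S, followed them in every group. At the low end stood Hyal1 and Sgsh after Pam3, below 1 RPKM, and Atp6v0c, the proton-carrying c subunit of V0, at 0.5315 to 0.858 RPKM over the 4 groups. The Atp6v0c value is uncertain: only uniquely aligned reads were counted, and 10.76% of the 50-base windows of its exons also occur in 2 pseudogenes (Atp6v0c-ps1 and Atp6v0c-ps2). Such shared windows also made up 32.35% of Ctsd, 26.33% of Ctsl, 19.15% of Atp6v1g1, 18.52% of Sgsh and 11.23% of Atp6v1f. For Ctsd they are shared with Gm49369, a gene model on the same strand with 0 reads in all libraries, and for Sgsh with Card14, so these levels are uncertain too. The kit does not mark strand, so that reads in the 12.791% of Ctsb exons that overlap Fdft1 and the 10.498% of Ctsa exons that overlap Pltp cannot be assigned between these pairs.

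Pam3 lowered most of these transcripts in both genotypes, while a minority rose. The rises called below ran from a log2 fold change of 0.085 (Atp6v0a2 in WT) to 2.596 (Ctsc in WT). By edgeR's quasi-likelihood test with Benjamini-Hochberg adjustment over all tested genes, 14 of the 53 were higher and 38 lower in KO_Pam3 than in KO_media, where 40.2% of all tested genes were higher and 44.8% lower (85.0% in either direction). In WT_Pam3 against WT_media 12 were higher and 34 lower, where the shares of all tested genes were 40.6% and 44.2% (84.8% in either direction). Without WT_Pam3 replicate 5 these counts were 14 and 35, where 41.1% and 45.7% of all genes were called. The median log2 fold change was -0.60 in KO and -0.42 in WT, against -0.074 and -0.055 over all tested genes. The libraries of the groups did not overlap for 36 lower and 11 higher genes in KO and for 31 lower and 10 higher genes in WT, where 39.7% of all tested genes were lower and 36.0% higher without overlap in KO, and 36.4% and 32.5% in WT. These splits depend on the scaling: with library size alone, which puts the median of all genes at -0.56 in KO and -0.58 in WT, 5 genes were higher and 44 lower in KO and 6 higher and 44 lower in WT. Of all tested genes 25.5% were then higher and 61.9% lower in KO, and 24.8% and 62.7% in WT.

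**Figure D2:**
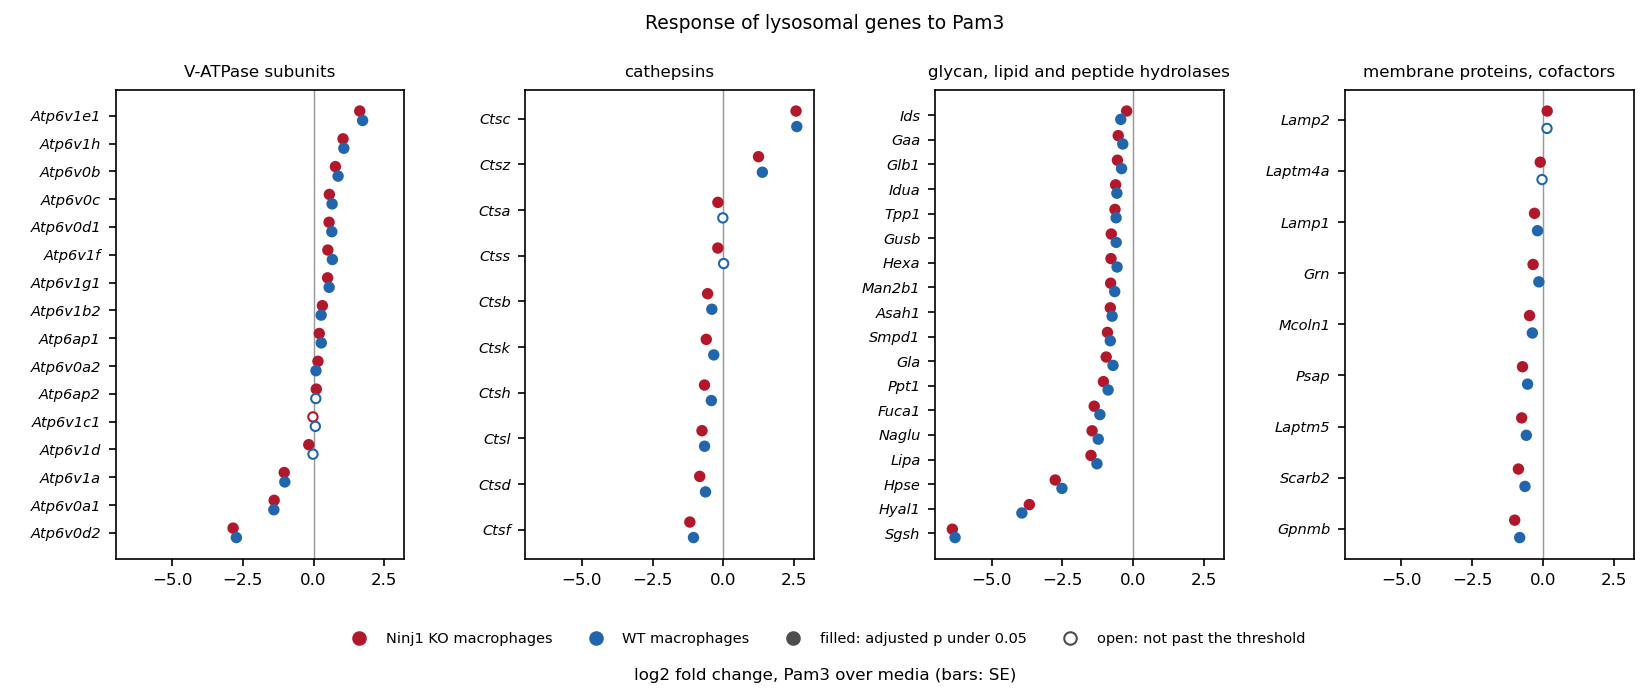
Log2 fold change of each gene, Pam3 over media (x axis), in KO (red, upper point of each pair) and WT (blue, lower point), by class, with filled points where the adjusted p was under 0.05 and SE bars that are mostly shorter than the points. All 18 hydrolases lie left of 0 in both genotypes, from -0.23 for Ids in KO to -6.39 for Sgsh in KO, while most V-ATPase subunits and the cathepsins Ctsc and Ctsz lie right of 0.

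The V-ATPase did not respond as 1 unit. Of its 16 genes 11 were higher and 4 lower in KO_Pam3 than in KO_media, where 40.2% of all tested genes were higher and 44.8% lower. In WT_Pam3 against WT_media 10 were higher and 3 lower, where the shares were 40.6% and 44.2%. The 4 largest rises in both genotypes included Atp6v1e1, the E stalk subunit of V1, which averaged 467.6 ± 16.2 CPM in KO_Pam3 and 150.8 ± 5.88 CPM in KO_media (log2 1.63, SE 0.0638, edgeR adjusted p = 6.05e-19), and 506 ± 77.9 CPM in WT_Pam3 and 152 ± 5.26 CPM in WT_media (log2 1.73, SE 0.0639, edgeR adjusted p = 1.62e-19). Atp6v1h, the regulatory H subunit of V1, rose by 1.04 in KO and 1.07 in WT on the log2 scale, and Atp6v0b, the c″ subunit of the V0 ring, by 0.77 and 0.87. In KO the uncertain Atp6v0c (0.56) completed these 4, and in WT the F subunit Atp6v1f (0.665), neither of which passed the test with library size alone.

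Against these rises stood the falls of single isoforms in V0 and of the catalytic subunit. Atp6v0d2, the d subunit isoform known from osteoclasts and macrophages, ran from 29.98 to 35.18 CPM (median 31.86) in KO_Pam3, from 39.05 to 42.15 CPM (median 39.37) in WT_Pam3, from 213.2 to 251.3 CPM (median 231.1) in KO_media and from 253.3 to 274.3 CPM (median 264.9) in WT_media. All Pam3 libraries lay far below all media libraries, and within each treatment no KO library reached a WT library. The log2 change with Pam3 was -2.84 in KO (SE 0.0471, edgeR adjusted p = 2.24e-27) and -2.73 in WT (SE 0.0468, edgeR adjusted p = 4.6e-27), or 7.18-fold and 6.63-fold lower. Its ubiquitous counterpart Atp6v0d1 went the other way: it ran from 316.7 to 347.8 CPM (median 327.7) in KO_Pam3, 322.1 to 439.7 CPM (median 336.7) in WT_Pam3, 219.3 to 237.3 CPM (median 223.8) in KO_media and 219.8 to 235.8 CPM (median 224.6) in WT_media. It rose by 0.549 in KO (SE 0.053) and by 0.645 in WT (SE 0.0531) on the log2 scale, and its KO and WT libraries overlapped in both treatments.

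Per length, Atp6v0d2 made up 5.855% ± 0.397 of the summed RPKM of both d isoforms in KO_Pam3 and 6.844% ± 0.748 in WT_Pam3, against 39.48% ± 1.28 in KO_media and 42.98% ± 0.563 in WT_media (SD, n = 6). In media all KO libraries (37.86% to 41%) lay below all WT libraries (42.08% to 43.71%), and after Pam3 the groups overlapped (5.603% to 6.654% in KO_Pam3, 5.417% to 7.532% in WT_Pam3). The a subunits, which form the proton path with the c ring and set where the pump resides, shifted in the same manner. Atp6v0a1 held 14.76% ± 0.239 of the summed RPKM of Atp6v0a1, Atp6v0a2 and Tcirg1 in KO_Pam3 and 15.17% ± 1.43 in WT_Pam3, against 36.13% ± 1.04 in KO_media and 36.85% ± 1.7 in WT_media. Tcirg1, the a3 subunit of lysosomes and osteoclasts, which is not among the 53 genes, held 81.9% ± 0.38, 81.79% ± 1.85, 61.08% ± 1.07 and 60.52% ± 1.8 in the same order of groups. Atp6v0a1 itself fell by 1.39 in KO and by 1.40 in WT (SE 0.0368 in both), and Atp6v1a, the catalytic A subunit of V1, fell by 1.04 and 1.02. Atp6v1d, the D subunit of the V1 shaft, fell by 0.17 in KO (edgeR adjusted p = 0.00382) and stood at -0.02 in WT (adjusted p = 0.719), and the difference between these responses did not pass the test (interaction -0.15, SE 0.0729, adjusted p = 0.411).

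**Figure D3:**
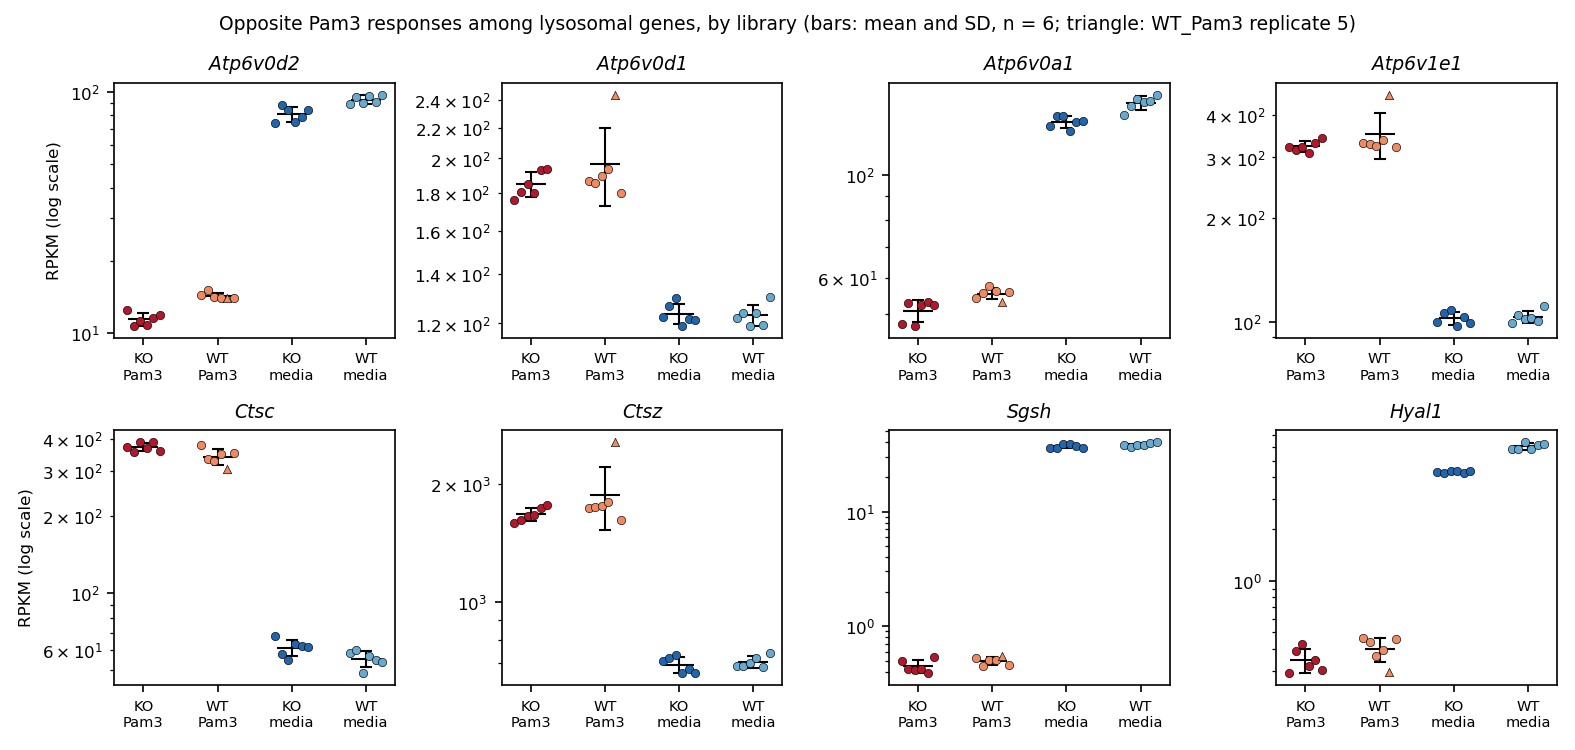
RPKM (log y axes, each with its own range) of 8 genes by library, with bars for mean and SD (n = 6) and a triangle for WT_Pam3 replicate 5. Atp6v0d2, Atp6v0a1, Sgsh and Hyal1 are lower in every Pam3 library than in every media library, while Atp6v0d1, Atp6v1e1, Ctsc and Ctsz are higher.

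The cathepsins split between 2 that rose and a majority that fell, where 44.8% of all tested genes fell in KO and 44.2% in WT. Ctsc, cathepsin C, which activates the serine proteases of granules, averaged 2184 ± 77.8 CPM in KO_Pam3 and 368.1 ± 27.9 CPM in KO_media (log2 2.57, SE 0.0567, edgeR adjusted p = 1.3e-24), and 2003 ± 141 CPM in WT_Pam3 and 331.3 ± 23.4 CPM in WT_media (log2 2.60, SE 0.0568, edgeR adjusted p = 1.03e-24). Ctsz, the carboxypeptidase cathepsin Z, rose by 1.24 in KO and 1.38 in WT. The other 8 were lower in KO_Pam3 than in KO_media, and 6 of them were lower in WT_Pam3 than in WT_media; the serine carboxypeptidase Ctsa and Ctss fell in KO by 0.19 (adjusted p = 0.00295) and 0.20 (adjusted p = 1.64e-04), and stood at -0.02 (adjusted p = 0.755) and 0.01 (adjusted p = 0.830) in WT by the same edgeR test. For neither did the difference between the responses pass (interaction adjusted p = 0.379 for Ctsa and 0.108 for Ctss). The largest falls were those of Ctsf, cathepsin F (-1.18 in KO and -1.06 in WT), Ctsd (-0.835 and -0.63), the endopeptidase Ctsl (-0.755 and -0.66) and the aminopeptidase Ctsh (-0.67 and -0.42).

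Values by library show how the most abundant cathepsins lay. Ctsb ran from 15680 to 17170 CPM (median 16120) in KO_Pam3, from 17690 to 21340 CPM (median 18000) in WT_Pam3, from 23360 to 24790 CPM (median 24070) in KO_media and from 24060 to 25600 CPM (median 24410) in WT_media. Ctsd ran from 5233 to 6114 CPM (median 5576) in KO_Pam3, from 5962 to 9207 CPM (median 6207) in WT_Pam3, from 9552 to 10780 CPM (median 9993) in KO_media and from 10070 to 10710 CPM (median 10260) in WT_media. For both genes the highest WT_Pam3 library was replicate 5, the library that stood apart, and the Pam3 groups did not overlap for Ctsb but did for Ctsd. Ctsl ran from 857.2 to 934.1 CPM (median 876.4) in KO_Pam3, 928.2 to 1134 CPM (median 957.5) in WT_Pam3, 1420 to 1579 CPM (median 1476) in KO_media and 1497 to 1595 CPM (median 1559) in WT_media, with a small overlap of the Pam3 groups. Ctsk, the collagenolytic cathepsin K of osteoclasts, was low, at 6.241 to 10.42 CPM (median 7.765) in KO_Pam3, 7.025 to 9.37 CPM (median 7.897) in WT_Pam3, 10.26 to 14.76 CPM (median 12.11) in KO_media and 8.797 to 10.47 CPM (median 10.24) in WT_media. Of 10 osteoclast markers, which include Ctsk and Atp6v0d2, Oscar, Ocstamp, Dcstamp and Calcr were under 1 CPM in every library.

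All 18 hydrolases of this class fell with Pam3 in both genotypes, and no Pam3 library reached a media library for any of them. Among all tested genes 44.8% were lower in KO and 44.2% in WT, and 39.7% and 36.4% were lower without overlap. Sgsh, the sulfamidase that removes N-linked sulfate from heparan sulfate, fell most: it averaged 2.15 ± 0.292 CPM in KO_Pam3 and 181.5 ± 7.44 CPM in KO_media (log2 -6.39, SE 0.0628, edgeR adjusted p = 8.84e-32), and 2.395 ± 0.187 CPM in WT_Pam3 and 188.1 ± 6.62 CPM in WT_media (log2 -6.295, SE 0.0625, edgeR adjusted p = 1.17e-31), an 83.9-fold and 78.5-fold lower level. The next genes were Hyal1, a hyaluronidase (-3.67 in KO and -3.93 in WT), Hpse, the heparanase that cuts heparan sulfate chains (-2.75 and -2.52), and Lipa, the acid lipase of cholesteryl esters and triglycerides (-1.49 and -1.28). Several of these act on heparan sulfate or hyaluronan: among the heparan sulfate enzymes of the class, Naglu, an N-acetylglucosaminidase, fell by 1.45 in KO and 1.23 in WT, Gusb, the beta-glucuronidase, by 0.77 and 0.60, Idua, the iduronidase, by 0.62 and 0.575, and Ids, the iduronate sulfatase, by 0.23 and 0.44. The smallest falls in the class were those of Ids in KO and of Gaa, the acid alpha-glucosidase of glycogen, in WT (-0.37). Outside this class, 30 further lysosomal hydrolases did not all fall. By the same edgeR test 9 of them were higher and 18 lower in KO, and 12 higher and 14 lower in WT. Their median log2 fold change was -0.188 in KO and -0.053 in WT, against -0.074 and -0.055 over all tested genes.

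A neighbour of Sgsh fell with it. Slc26a11, an anion transporter gene that starts 21 bases from the start of Sgsh on the opposite strand (chromosome 11, positions 119355557 to 119381079 of GRCm38, with Sgsh at 119343425 to 119355536), averaged 3.152 ± 0.598 CPM in KO_Pam3, 3.563 ± 0.525 CPM in WT_Pam3, 114.1 ± 6.78 CPM in KO_media and 128.2 ± 10.1 CPM in WT_media. Its log2 change was -5.18 in KO (SE 0.0936) and -5.17 in WT (SE 0.0932), with edgeR adjusted p = 1.51e-26 and 1.41e-26. This neighbour was chosen after its values were seen. Hyal1 shares 50.834% of its exon length, on the same strand, with Naa80, an actin acetyltransferase gene, so its count covers only what aligned to Hyal1 alone and is uncertain. Naa80 fell by 1.08 in KO and by 1.10 in WT, less than Hyal1.

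Membrane proteins and cofactors moved less. In KO 1 of the 7 membrane protein genes was higher and 6 lower after Pam3, in WT 0 and 5, and both cofactors fell in both genotypes. The shares of all tested genes were 40.2% higher and 44.8% lower in KO, and 40.6% and 44.2% in WT. Gpnmb, a glycoprotein induced in lysosomal stress and lipid loading, was the largest fall in both genotypes (-0.999 in KO and -0.82 in WT), followed by Scarb2, the receptor LIMP-2 that carries glucocerebrosidase to lysosomes (-0.87 and -0.64), Laptm5, a transmembrane protein of haematopoietic cells (-0.75 and -0.59), and Mcoln1, the calcium channel TRPML1 (-0.47 and -0.375). Psap fell by 0.72 in KO and 0.54 in WT, and Grn, the precursor of granulins, by 0.35 and 0.145. Lamp1 and Lamp2, the main glycoproteins of the lysosomal membrane, parted: Lamp1 fell by 0.30 and 0.19, whereas Lamp2 stood at 0.15 in KO (edgeR adjusted p = 0.0475) and 0.14 in WT (edgeR adjusted p = 0.0576). The direction of Lamp2 depends on the scaling, since with library size alone it was lower in KO (-0.33, adjusted p = 5.71e-05), and its call ended without any of KO_Pam3 1, 2, 3, 5 or 6 or KO_media 3, 4, 5 or 6 (adjusted p 0.0506 to 0.0859).

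Between the genotypes in media, 5 of the 53 genes differed. By edgeR's quasi-likelihood test 1 was higher and 4 were lower in KO_media than in WT_media, where 1.92% of all tested genes were higher and 1.12% lower (3.03% in either direction); the median of the 53 was -0.02. Hyal1 differed most, at 18.28 ± 0.249 CPM in KO_media and 25.69 ± 1.18 CPM in WT_media (log2 -0.49, SE 0.055, edgeR adjusted p = 4.94e-06, lower in 6 of 6 libraries). Atp6v0d2 was lower by 0.20 (SE 0.0431, edgeR adjusted p = 0.00897). Hpse ran from 454.7 to 484.5 CPM (median 459.7) in KO_media and from 492.1 to 520.5 CPM (median 511.5) in WT_media, lower by 0.14 (SE 0.031, edgeR adjusted p = 0.0129). Atp6v0a1 was lower by 0.13 (adjusted p = 0.0431), a call that ended without any of 12 single libraries, namely WT_Pam3 1, 2 or 4, KO_media 1, 4, 5 or 6, or WT_media 2 to 6 (adjusted p 0.0503 to 0.123).

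Ctss was the gene that stood higher in KO at rest. This protease, which processes the invariant chain of MHC class II, ran from 3770 to 4030 CPM (median 3880) in KO_media and from 3142 to 3645 CPM (median 3459) in WT_media, so the groups did not overlap (log2 0.19, SE 0.0431, edgeR adjusted p = 0.0124). After Pam3 it ran from 3148 to 3614 CPM (median 3378) in KO_Pam3 and from 3236 to 3755 CPM (median 3387) in WT_Pam3, which overlap. Over all 53 genes, 1 stood higher and 5 lower in KO_media without overlap, where 2.16% and 2.11% of all tested genes did. Without WT_Pam3 replicate 5, which enters the shared estimate of spread, 3 genes were higher and 5 lower in KO_media, with Ctsk (0.30, adjusted p = 0.0285), Ctsc (0.15, adjusted p = 0.0347) and Atp6v1b2 (-0.08, adjusted p = 0.0427) added; 4.52% of all genes were then higher and 4.23% lower.

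After Pam3 the KO macrophages held less of many lysosomal transcripts than the WT macrophages. By edgeR's quasi-likelihood test 18 of the 53 genes were lower in KO_Pam3 than in WT_Pam3 and 0 higher, where 2.75% of all tested genes were lower and 1.31% higher (4.06% in either direction). At an unadjusted p under 0.05 1 gene, Ctsc, was higher and 34 lower, but the share of all tested genes at that threshold was not counted. DESeq2 and limma-voom also called 0 higher, where 1.96% and 3.14% of all tested genes were higher. The differences were small: the median of the 53 was -0.14, against -0.01 over all tested genes, and 49 of the 53 stood below 0. All 6 KO libraries lay below all 6 WT libraries for 16 of the 53 genes, where 1.63% of all tested genes did, and for none did they lie above, where 0.894% did. Without WT_Pam3 replicate 5 the count was 24 lower, with all 18 among them, against 5.67% of all genes, and the median was -0.10. By class, 9 of 18 hydrolases, 3 of 10 cathepsins, 3 of 7 membrane proteins, 2 of 16 V-ATPase subunits and 1 of 2 cofactors were lower.

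**Figure D4:**
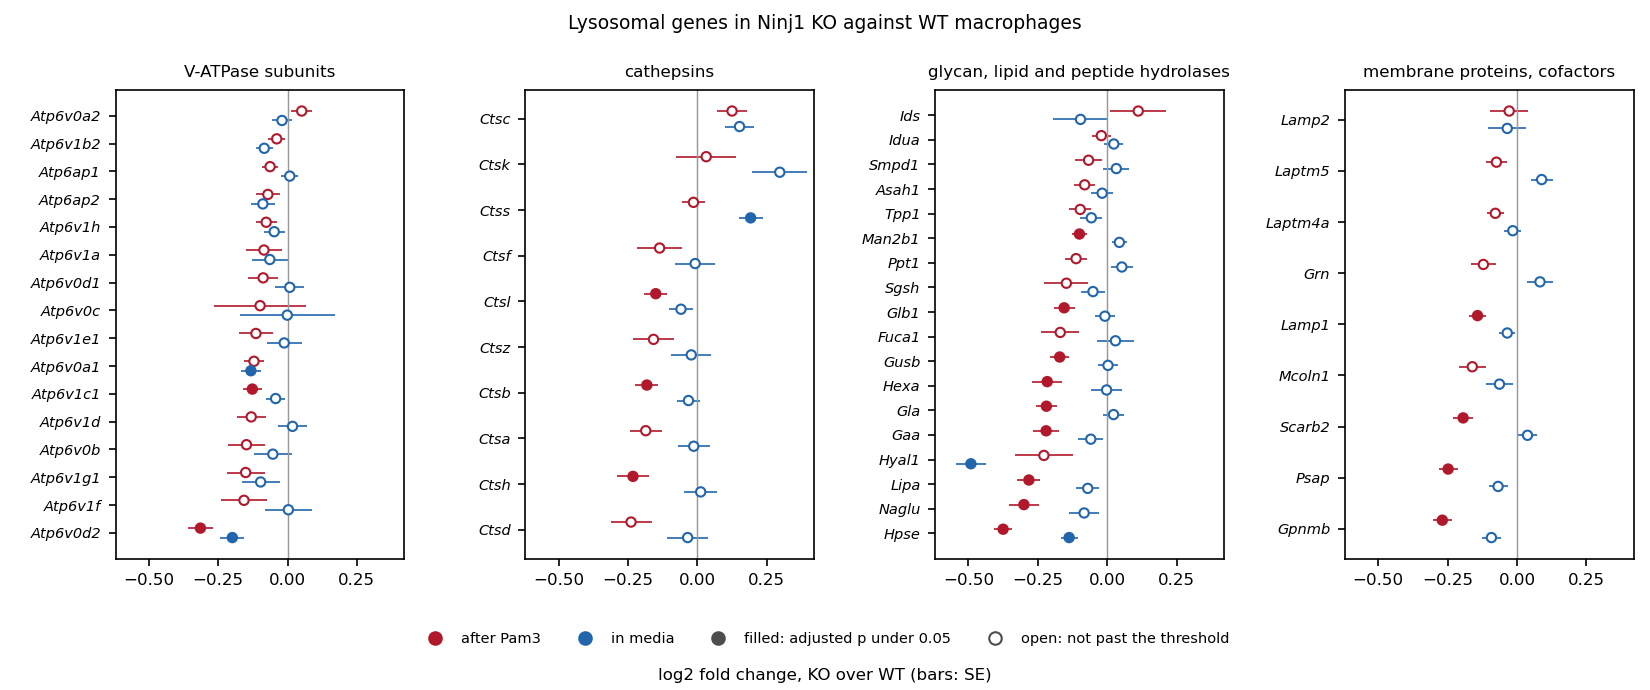
Log2 fold change of each gene, KO over WT (x axis, bars are SE), after Pam3 (red, upper point) and in media (blue, lower point), by class, with filled points where the adjusted p was under 0.05. After Pam3 all but 4 points (Atp6v0a2, Ctsc, Ctsk and Ids) lie left of 0, down to -0.375 for Hpse, whereas in media the points scatter around 0 with Hyal1 at -0.49.

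Hpse showed the smallest adjusted p. It ran from 65.08 to 72.71 CPM (median 68.88) in KO_Pam3 and from 85.25 to 91.24 CPM (median 89.73) in WT_Pam3, without overlap; WT_Pam3 replicate 5 was the highest of its group, and without it the log2 fold change was -0.368. The log2 fold change was -0.375 (SE 0.0319, edgeR adjusted p = 5.83e-08), or 22.9% lower. Gpnmb ran from 4617 to 5107 CPM (median 4904) in KO_Pam3 and from 5665 to 6051 CPM (median 5907) in WT_Pam3 (log2 -0.27, SE 0.0349, edgeR adjusted p = 2.4e-05). Psap ran from 10670 to 12090 CPM (median 11410) in KO_Pam3 and from 13180 to 13710 CPM (median 13490) in WT_Pam3 (log2 -0.25, SE 0.0342, edgeR adjusted p = 5.35e-05). Neither of these abundant transcripts overlapped between the genotypes after Pam3. On GRCm38 Gpnmb (ENSMUSG00000029816) lies on chromosome 6 at positions 49036546 to 49070929, and Psap (ENSMUSG00000004207) on chromosome 10 at positions 60277627 to 60302597.

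Lipa ran from 708.3 to 776.8 CPM (median 751.8) in KO_Pam3 and from 818.7 to 1011 CPM (median 906.7) in WT_Pam3 (log2 -0.28, SE 0.0412, edgeR adjusted p = 1.03e-04), with WT_Pam3 replicate 5 the lowest of its group. Atp6v0d2, whose values stand above, had a log2 fold change of -0.31 (SE 0.0458, edgeR adjusted p = 1e-04). Together with Gla, the alpha-galactosidase A of globosides, and Naglu, these are the genes that passed the test in every 1 of 32 alternative fits: Atp6v0d2, Gla, Gpnmb, Hpse, Lipa, Naglu and Psap, 7 of the 18. Naglu was at 85.29 ± 5.06 CPM in KO_Pam3 and 105 ± 10.6 CPM in WT_Pam3 (log2 -0.30, SE 0.0555, edgeR adjusted p = 0.00135).

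Of the other genes lower in KO_Pam3, 5 were hydrolases besides those named: Gusb (-0.17, adjusted p = 0.00334), Gaa (-0.22, adjusted p = 0.00417), Glb1, the beta-galactosidase (-0.155, adjusted p = 0.0157), Hexa, the alpha chain of beta-hexosaminidase (-0.22, adjusted p = 0.0225, and -0.138 with adjusted p = 0.00305 without WT_Pam3 replicate 5), and Man2b1, an alpha-mannosidase (-0.10, adjusted p = 0.0408), all by edgeR's test. Among cathepsins Ctsb (-0.18, SE 0.041, edgeR adjusted p = 0.00932), Ctsh (-0.23, SE 0.0592, edgeR adjusted p = 0.0227) and Ctsl (-0.15, SE 0.0422, edgeR adjusted p = 0.0413) passed. Without WT_Pam3 replicate 5 these 3 stood at -0.14, -0.14 and -0.10 and still passed (adjusted p = 0.0011, 0.00153 and 0.0262). Ctsd was at -0.24 and did not pass (adjusted p = 0.0672); without that library it stood at -0.12 with a smaller SE (0.0346) and passed (adjusted p = 0.0212). Scarb2 and Lamp1 were the other membrane proteins that passed (adjusted p = 0.00114 and 0.0045), and Atp6v1c1, the C subunit of V1 that links it to V0, the other V-ATPase subunit (-0.13, adjusted p = 0.0262).

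Lamp1 ran from 2410 to 2570 CPM (median 2455) in KO_Pam3, 2659 to 2787 CPM (median 2737) in WT_Pam3, 2953 to 3138 CPM (median 3051) in KO_media and 3026 to 3198 CPM (median 3136) in WT_media. The Pam3 groups did not overlap and the media groups did (log2 -0.14, SE 0.0295 after Pam3). Lamp2 ran from 794.4 to 878.4 CPM (median 843.3) in KO_Pam3 and from 609.8 to 927.8 CPM (median 908.9) in WT_Pam3, where the lowest value belonged to WT_Pam3 replicate 5. Mcoln1 ran from 41.83 to 45.76 CPM (median 44.84) in KO_Pam3 and from 45.59 to 57.38 CPM (median 48.18) in WT_Pam3, and did not pass (log2 -0.16, SE 0.0491, edgeR adjusted p = 0.0629). In media Lamp2 ran from 706.8 to 804.9 CPM (median 766) in KO_media and 713.1 to 839.8 CPM (median 781.5) in WT_media, and Mcoln1 from 58.3 to 63.31 CPM (median 61.86) in KO_media and 60.63 to 70.66 CPM (median 63.56) in WT_media, with overlap in both.

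**Figure D5:**
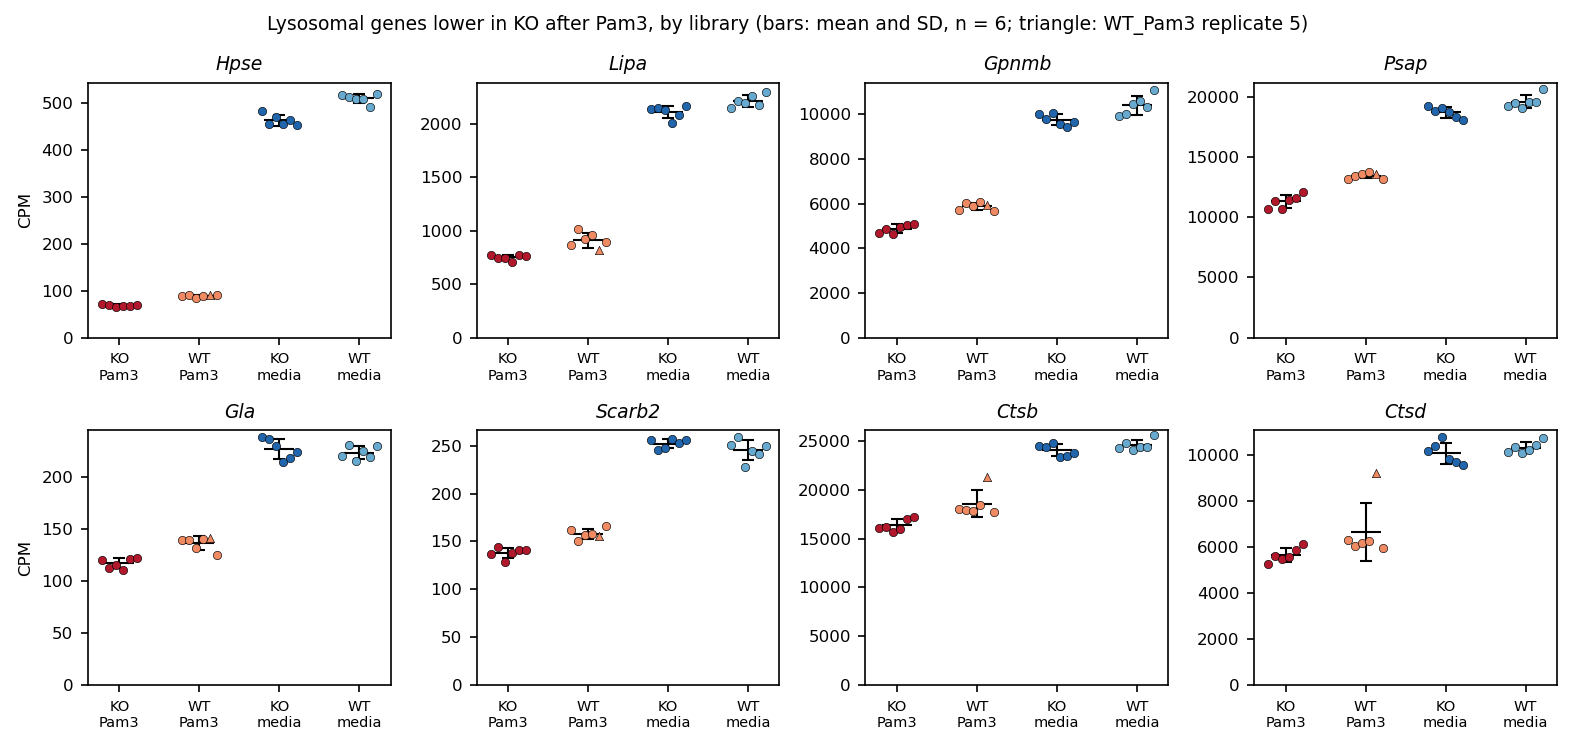
CPM (y axes, from 0) of 8 genes by library, with bars for mean and SD (n = 6) and a triangle for WT_Pam3 replicate 5. For Hpse, Lipa, Gpnmb, Psap and Ctsb all KO_Pam3 points lie below all WT_Pam3 points, and for Ctsd the triangle lies at 9207 CPM, above the other WT_Pam3 libraries.

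Some calls after Pam3 lay near the threshold and ended when 1 library was left out. Leaving out any 1 media library gave the same count, 15 lower, where 1.98% to 2.22% of all tested genes were lower, and moved the median over all genes from -0.014 to 0.003. The cause of this common shift was not tested. Man2b1 lost its call without any 1 of 22 libraries (adjusted p 0.0518 to 0.138), keeping it without WT_Pam3 5 or 6. Ctsl lost its call without any 1 of 18 (KO_Pam3 1 to 5, WT_Pam3 1 and every media library, adjusted p 0.0583 to 0.103). Atp6v1c1 lost it without any 1 of 17 (KO_Pam3 2, 3 or 4, WT_Pam3 2 or 4 and every media library, adjusted p 0.0509 to 0.0926). Ctsh lost it without KO_Pam3 2 or 3 (adjusted p up to 0.0648) and Hexa without KO_Pam3 3 or 4 (adjusted p up to 0.069). The remaining 13 kept their call without any 1 library.

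Marker genes of other cells also differed between the genotypes. For comparison, 1.31% of all tested genes were higher and 2.75% lower in KO after Pam3, and 1.92% and 1.12% in media. The 14 stromal and endothelial markers summed to 204.3 to 262 CPM in KO_Pam3, 145.7 to 214.4 CPM in WT_Pam3, 79.61 to 133.4 CPM in KO_media and 63.87 to 75.59 CPM in WT_media, with 4 of 14 higher after Pam3 and 7 of 14 in media, and Lum under 1 CPM in every library. The 14 granulocyte markers summed to 794.6 to 942.4, 790.5 to 861.1, 264 to 291.3 and 234.4 to 251.7 CPM in the same order of groups, with 2 of 13 tested higher after Pam3 and 4 in media, and Ly6g and Cebpe under 1 CPM in every library. The 10 osteoclast markers summed to 355.5 to 429, 382.6 to 427.8, 351.9 to 390 and 393.7 to 412.6 CPM, with 2 of 9 tested lower after Pam3 (Acp5 and Atp6v0d2) and 1 in media (Atp6v0d2). The 12 dendritic cell markers summed to 221.5 to 257.7, 206 to 248.9, 35.97 to 39.53 and 32.67 to 37.98 CPM, with 1 of 10 tested higher after Pam3, 2 higher and 1 lower in media, and Zbtb46, Xcr1 and Cd209a under 1 CPM in every library. Of 8 macrophage markers 2, the surface protein Cd68 (-0.28) and the uptake receptor Mertk (-0.63), were lower and Itgam (0.17) higher in KO_Pam3 by the edgeR test. In media 1 of these 8 was higher in KO and 0 were lower. Lymphocyte, mast cell or basophil, and erythroid or megakaryocyte markers summed to at most 6.957, 12.56 and 188.5 CPM in any library, with 7 of 10, 7 of 8 and 5 of 8 under 1 CPM everywhere. The part of these differences in the lysosomal results was not tested.

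The response to Pam3 itself differed between the genotypes for 3 of the 53 genes. By the interaction term of the edgeR fit, the response in KO minus that in WT, 3 genes were lower and 0 higher, where 0.589% of all tested genes were lower and 0.173% higher (0.762% in either direction). At an unadjusted p under 0.05 21 were lower and 1 higher, but the share of all tested genes at that threshold was not counted. DESeq2 called 10 lower and 0 higher, where 2.1% of all tested genes were lower and 0.623% higher. With limma-voom the counts were 12 and 0, where the shares were 3.57% and 0.88%. The median of the 53 was -0.115, against -0.018 over all tested genes, and 46 stood below 0. The 3 genes past the edgeR test were Hpse (-0.24, SE 0.0445, adjusted p = 0.0115), Scarb2 (-0.23, SE 0.0494, adjusted p = 0.0258) and Gla (-0.24, SE 0.0536, adjusted p = 0.0271). Gla ran from 110.8 to 122.6 CPM (median 118.1) in KO_Pam3, 125.4 to 141.6 CPM (median 139.7) in WT_Pam3, 214.5 to 238.6 CPM (median 227.1) in KO_media and 215.6 to 230.5 CPM (median 222.8) in WT_media. Scarb2 ran from 128.6 to 144.5 CPM (median 139.4) in KO_Pam3, 150.8 to 165.9 CPM (median 157.4) in WT_Pam3, 245.2 to 256.6 CPM (median 254.3) in KO_media and 228.3 to 259.6 CPM (median 247.1) in WT_media. Both overlapped between the genotypes in media and not after Pam3.

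The interaction calls were sensitive to single libraries. With 1 library left out the count ran from 0 to 10: it was 0 without WT_media 3 or 5, 1 without KO_Pam3 3, KO_media 1, 5 or 6 or WT_media 1, 4 or 6, and 10 without WT_Pam3 5. The share of all tested genes that were lower also moved. It was 0.138% without WT_media 3 and without WT_media 5, and 0.199% to 0.666% in the fits with 1 gene called. In the fit without WT_Pam3 5, 3.03% of all tested genes were lower and 0.7% higher. Those 10 comprised Hpse (-0.23, adjusted p = 0.00174), Scarb2 (-0.24, adjusted p = 0.00343), Lipa (-0.24, adjusted p = 0.00441) and Gla (-0.23, adjusted p = 0.00662), with Psap, Gpnmb, Man2b1, Gusb, Ctsh and Ctss between -0.177 and -0.135, by edgeR. Hpse lost its call without WT_media 3 or 5 (adjusted p up to 0.0533), Scarb2 without 10 and Gla without 16 of the 24 libraries (adjusted p up to 0.084 and 0.104).

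The E-box groups can be set beside these calls as a description. Of the 13 genes with CACGTG in the window, 6 were lower in KO_Pam3 than in WT_Pam3 (Ctsl, Gaa, Gla, Glb1, Lamp1 and Naglu; median -0.155), against 8 of the 31 genes without it (median -0.11). Of the 9 genes with no promoter sequence at hand 4 were lower (median -0.127). Of the 5 genes with TCACGTGA 1 was lower (median -0.186), and 2.75% of all tested genes were lower in this comparison. With Pam3 12 of the 13 fell in KO and 11 in WT, 22 and 19 of the 31, and 4 and 4 of the 9, where 44.8% of all tested genes fell in KO and 44.2% in WT. Hpse and Scarb2, which differed in the interaction, had no match in their windows, and Gla had the longer one.

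Other lysosomal genes outside the 53 were described in the same way, from lists of 94 genes of which 84 were tested. In KO_Pam3 against WT_Pam3 16 were lower and 2 higher, where 2.75% of all tested genes were lower and 1.31% higher. Of 30 further hydrolases 6 were lower and 0 higher, led by Scpep1, a serine carboxypeptidase (-0.20, edgeR adjusted p = 1.53e-04), Acp5, the tartrate-resistant phosphatase (-0.46, adjusted p = 1.53e-04), Galc, the galactosylceramidase (-0.24), and Galns, a sulfatase of keratan sulfate (-0.24). Scpep1 was also the 1 gene of these lists past the interaction test (-0.22, adjusted p = 0.0158). Of 25 further membrane proteins 5 were lower and 2 higher: Gpr137b, a regulator of mTORC1 at the lysosome, was higher at 84.69 ± 2.72 CPM in KO_Pam3 and 55.26 ± 2.37 CPM in WT_Pam3 and at 89.05 ± 5.34 CPM in KO_media and 58.13 ± 1.8 CPM in WT_media, and Tpcn1, a cation channel of endosomes and lysosomes, was 0.18 higher, with Cd68 (-0.28) and Ostm1 (-0.17), a subunit of the ClC-7 transporter, among the lower.

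Genes that control or serve these enzymes were described too. Of 11 genes of MiT/TFE factors and their control 4 rose and 7 fell with Pam3 in KO, where 40.2% of all tested genes rose and 44.8% fell, and 4 rose and 6 fell in WT, where 40.6% and 44.2% did. Tfeb averaged 13.54 ± 1.07 CPM in KO_Pam3, 15.33 ± 2.49 CPM in WT_Pam3, 80.28 ± 3.98 CPM in KO_media and 81.04 ± 2.86 CPM in WT_media, whereas Tfec averaged 255.6 ± 12.7, 288.6 ± 20.2, 14.91 ± 0.749 and 15.23 ± 1.03 CPM in the same order of groups. After Pam3 Rragc and Rragd, GTPases that hold mTORC1 at the lysosome, and Tfec were lower in KO (-0.17, -0.24 and -0.175), and Tfeb did not pass (-0.18, edgeR adjusted p = 0.229). Of 11 genes that sort enzymes to lysosomes, Sort1, a sorting receptor (-0.28, edgeR adjusted p = 0.00509), and Gga2, a coat adaptor (-0.13, edgeR adjusted p = 0.0186), were lower in KO_Pam3, where 2.75% of all tested genes were lower. Of 4 tested cathepsin inhibitors and 3 tested further V-ATPase subunits 0 passed the edgeR test between the genotypes. At an unadjusted p under 0.05, 3 inhibitors and 1 subunit were lower in KO_Pam3 and 1 inhibitor was higher in KO_media. The share of all tested genes at that unadjusted threshold was not counted. Among inhibitors Cst7, cystatin F, rose with Pam3 to 41.23 ± 2.7 CPM in KO_Pam3, against 3.228 ± 0.556 CPM in KO_media, and to 48.61 ± 7.95 CPM in WT_Pam3, against 2.562 ± 0.143 CPM in WT_media.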

How the data were processed

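RNA from 24 libraries was sequenced as unstranded, single-end 50 bp reads. Per the submitters' processing notes reads were aligned with GSNAP to GRCm38. The authors deposited raw counts of uniquely aligned reads per gene and size-factor-adjusted RPKM values, per the file headers. Gene IDs were named with GENCODE release 21. Gene models without a symbol held 0.0039% of reads.

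Groups came from the labels, 6 libraries each. Genes were filtered with filterByExpr and scaled by TMM, and edgeR 4.0.16 (R 4.3.3) fitted 1 quasi-likelihood model to all 24 libraries, which share 1 estimate of spread. KO was compared with WT in each treatment, Pam3 with media in each genotype, and the responses with each other, with Benjamini-Hochberg adjustment over 14435 genes and a threshold of 0.05. CPM, shares of reads and ratios of RPKM were computed per library. Alternatives used DESeq2 1.42.0, limma 3.58.1 (voom with quality weights), other scalings and filters, 2-group fits and each library left out. Between 31302011 and 40663152 reads per library make counting error small for all but the lowest genes.

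The 53 genes, the other lysosomal lists and the marker lists were chosen with earlier results of these data known. Named were all of the 53 past the threshold between genotypes or in the interaction, the 4 largest rises and falls of each class with Pam3, and up to 4 genes per other list. Values by library were given for a set of 14 genes and the interaction calls.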

Additional observations from a re-analysis of the deposited data

Results flagged for a closer look

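Of 212 group values (53 genes in 4 groups of 6 libraries), 30 had 1 library far from the other 5, where chance gives about 1 in 20. WT_Pam3 replicate 5 held 23 of them. Among V-ATPase genes it had 440 CPM of Atp6v0d1 (322 to 347 CPM in the other 5), 766 of Atp6v0b, 664 of Atp6v1e1, 70.1 of Atp6v1f and 25.7 of Atp6v1g1, all above the others, and 332 of Atp6v1a and 178 of Atp6ap2, both below. Among cathepsins it was the highest, with 1460 CPM of Ctsa, 21300 of Ctsb, 9210 of Ctsd, 14.5 of Ctsf, 394 of Ctsh, 1130 of Ctsl and 4080 of Ctsz. Among hydrolases it had 169 CPM of Glb1, 530 of Gusb, 1390 of Hexa and 160 of Fuca1, above the others, and 48.0 of Ids, 264 of Asah1 and 252 of Tpp1, below. Lamp2 was low at 610 CPM and Grn high at 3760 CPM. This is the library whose short genes were high and long genes low, and the part of that shift in these values was not tested.

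The other 7 lay in 5 libraries. KO_Pam3 replicate 6 had 559 CPM of Atp6v0b and 452 of Laptm4a, above the others of its group. KO_media replicate 3 had 293 CPM of Fuca1, above, and 423 of Tpp1, below. WT_media replicate 4 had 212 CPM of Atp6ap2 and replicate 6 had 20600 CPM of Psap, both above, and replicate 5 had 8.80 CPM of Ctsk, below.

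The Pam3 response differed between KO and WT by the interaction test for Gla (-0.24), Hpse (-0.24) and Scarb2 (-0.23).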

How the results depend on the processing

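The cause of each shift below was not tested unless stated. Percents in brackets are shares of all genes tested in the same fit. Of the 53 genes, those higher in KO_media than WT_media numbered 3 with limma-voom (4.72%), 2 with the 2 groups alone (4.17%) and 1 to 3 with 1 library left out (1.06% to 4.52%). Those lower numbered 2 with no filter on low counts (0.461%) and 7 with limma-voom (4.59%). After Pam3, 8 were lower in KO with no filter (0.664%), 8 with the 2 groups alone (0.879%) and 13 to 24 with 1 library left out (1.83% to 5.67%). With the 2 groups alone and WT_Pam3 replicate 5 left out, an alternative chosen after seeing the data, 1 was higher (3.6%) and 23 were lower (5.91%). With library size alone, 6 rose with Pam3 in WT and 5 in KO, and Lamp2 in KO turned to -0.334; over all genes 3584 were then higher and 9055 lower in WT and 3685 and 8935 in KO, against 5859 and 6376 in WT and 5803 and 6470 in KO with TMM. The interaction gave 10 lower genes with DESeq2 (2.1%), 12 with limma-voom (3.57%), 1 with library size alone (0.374%), 0 with no filter (0.149%) and 0 to 10 with 1 library left out (0.138% to 3.03%). The Atp6v0d2 share in WT_media was 43.68% by CPM per exon length.

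Over all genes, the fit gave 277 higher and 161 lower in KO_media, 189 and 397 in KO_Pam3 and 25 and 85 in the interaction. In the same order DESeq2 gave 399 and 294, 283 and 599, 90 and 303; limma-voom 681 and 662, 453 and 997, 127 and 515; library size alone 323 and 134, 412 and 220, 34 and 54; no filter 252 and 127, 183 and 183, 22 and 41. The fit with no filter tested 27541 genes. The 2 groups alone gave 581 and 531 of 13944 tested genes in media and 63 and 114 of 12973 after Pam3. Without WT_Pam3 replicate 5 the counts, in the order used above, were 658 and 616, 352 and 826, 102 and 442. Of values for single genes, 513 kept direction and call under these alternatives, 41 lost the call and 1 reversed; with 1 library left out 1666 kept both and 110 lost the call. No paired analysis was possible because the labels give no replicate numbers.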
